A study of Rattus norvegicus with 8 samples.

Results

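Hemoglobin is built from alpha-type and beta-type globin chains, and 7 symbols of this system were looked up on the array: the adult alpha genes Hba-a1 and Hba-a2, the adult beta genes Hbb and Hbb-b1, the embryonic epsilon-type genes Hbe1 and Hbe2, and Ahsp, which encodes the alpha hemoglobin stabilizing protein. The platform annotation listed 7 of the 31042 tested probe sets for 6 of these symbols, and all 7 were kept. By symbol these are 6 of the 14863 genes that the tested probe sets name. Of these, 3 carried both Hba-a1 and Hba-a2, so that the pair could not be separated, and 1 each carried Hbb, Hbe1, Hbe2 and Ahsp. No probe set was listed for Hbb-b1. The rule picked probe sets by symbol, and the symbols were chosen with earlier results of these data known.

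Blood RNA came from male Wistar rats given mulberry leaf powder at 1% in a high-fat feed (Quick fat), set against rats given the high-fat feed without it, and was read on Affymetrix rat arrays, 4 per diet. The animals were bought at 7 weeks of age, acclimated on a normal feed (CE-2) and kept on their diet for 8 weeks, and blood was drawn on day 56, the rats having fasted overnight. There were 10 rats to a diet. Whether an array holds RNA of 1 rat or of a pool is not given in the sources used here, so p-values measure only the spread between these samples, and a normal-feed group was not analysed here.

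Adult hemoglobin pairs alpha-type with beta-type chains in a tetramer, and each chain holds a heme that binds oxygen. Globin messages persist in reticulocytes, the youngest circulating red cells, after the nucleus is lost, which is why whole blood RNA is rich in them. Free alpha chains are unstable and prone to precipitate, and Ahsp holds them until a beta chain is available. Embryonic chains are made mainly before birth in primitive red cells and are replaced by adult chains during development.

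The deposited values were log2 probe set summaries whose spread between arrays was very small, with a median SD of 5.31e-06 over the 8 arrays. For this reason each probe set was divided by its own SD over the 8 arrays, and a difference in these SD units is the mulberry mean minus the high-fat mean, not an ordinary fold change. A value says where a probe set lies on the deposited scale and does not rank transcript amounts between genes. In bulk blood, fewer cells of a type and less RNA per cell cannot be told apart. Values of the 11 measured erythroid markers of 15 listed ran from 6.56 to 13.85, with Alas2, the red cell enzyme that opens heme synthesis, at 13.85 and Slc4a1, the band 3 anion exchanger, at 10.995. The median of all tested probe sets was 6.57. Detection calls were not used here, so absence of a marker could not be called.

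The adult alpha and beta chain probe sets had no resolved spread on the deposited scale, so they could not show a difference between the diets. Whether adult globin RNA changed cannot be read from these values. The 3 alpha probe sets each held 1 number on all 8 arrays, and Hbb varied only in the last printed decimal. The first of the 3 probe sets shared by Hba-a1 and Hba-a2 was 15.25605055 on all 4 mulberry arrays and on all 4 high-fat arrays. The second was 15.24966501 on all 4 mulberry and all 4 high-fat arrays, and the third was 15.1770795 on all 8. These alpha chain values did not differ in any printed decimal.

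Hbb, an adult beta chain gene, was 15.0912908 or 15.09129081 on each of the mulberry arrays and on each of the high-fat arrays, a range of 1e-08. That is 1 unit of the last printed decimal. No SD units were given to a probe set whose values ranged over less than 1e-07, which held for 9 tested probe sets, 4 of them members and 2 of them other globin probe sets. The 3 remaining ones lay below the table's median level. Identical values on all 8 arrays occurred in 4 of the 31042 tested probe sets, of which 3 were the Hba-a1 and Hba-a2 probe sets and 1 was shared by the beta-type genes Hbbl1 and Hbb-bs.

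These members also lay at the top of the scale. The 4 adult chain probe sets held the 4 highest values of the table, from 15.09 for Hbb to 15.2561 for the first alpha probe set, and the probe sets shared by Hbbl1 and Hbb-bs came next at 15.06 and 14.698. The spread narrowed toward this end for other transcripts too. The median SD was 4.13e-05 for the 185 probe sets between 10 and 11, 4.9e-06 for the 48 between 13 and 14, and 3.97e-07 for the 12 between 14 and 15. The brightest manufacturer control lay at 14.43 and ranged over 3e-07. The part of this narrowing in the missing spread of the adult chains was not tested. Of the 7 member probe sets, 3 (Hbb and 2 of the alpha pair) have names ending in x_at, which marks probes that can match other transcripts.

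**Figure D1:**
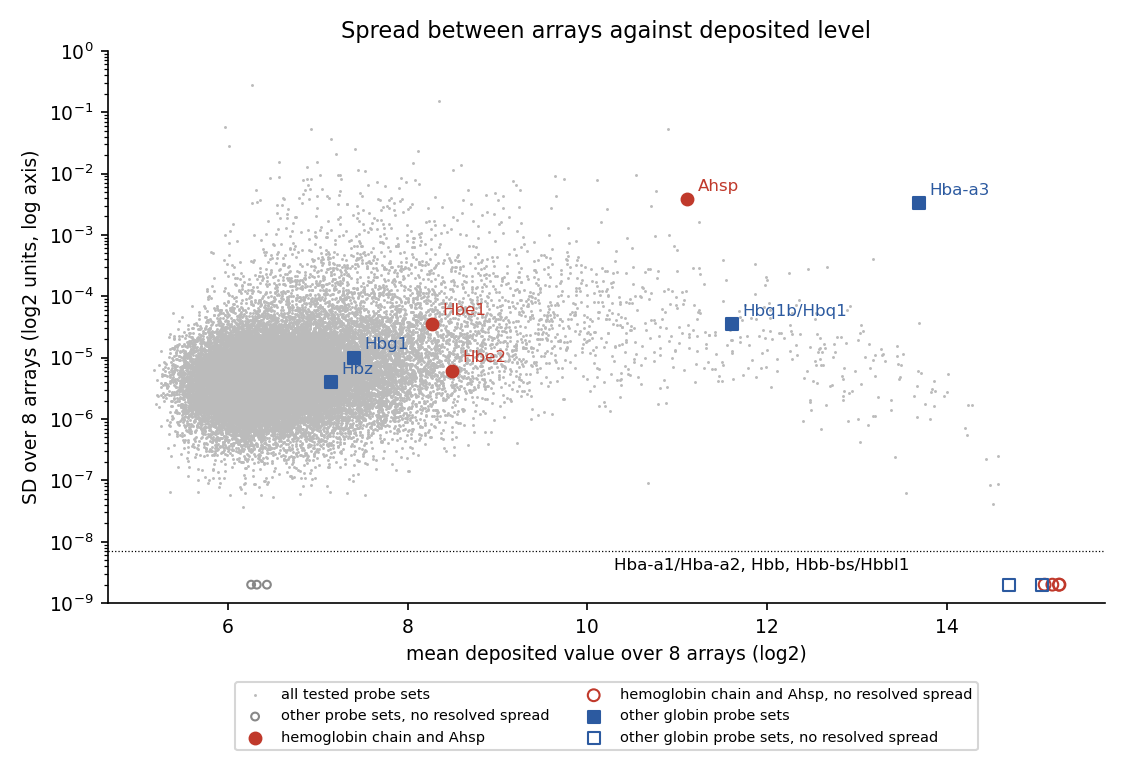
Each grey point is a tested probe set, with its mean deposited log2 value over the 8 arrays on the x axis and its SD over them on a logarithmic y axis. Filled coloured points are globin and Ahsp probe sets, and open points under the dotted line, at an arbitrary height, ranged over less than 1e-07. The adult chain probe sets lie at the far right with no resolved spread, while Ahsp (SD 0.00383) and Hba-a3 (SD 0.00331) stand above the probe sets of like level.

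The promoters of Hba-a1 and Hba-a2 are printed because the array reads these genes as 1, and those of Hbb and Hbe1 because 1 is an adult and 1 an embryonic gene of the beta cluster. Each window runs from 250 bases before to 50 after the transcription start (RefSeq, assembly GRCr8, all on the minus strand), at chr10:15842531-15842830 for Hba-a1, chr10:15829089-15829388 for Hba-a2, chr1:167663672-167663971 for Hbb and chr1:167696231-167696530 for Hbe1. Capitals mark a CCAAT box, a CACCC box, the TATA box letters TATAAA or the variant letters CATAAA, and the GATA letters GATAA, on either strand.
Hba-a1: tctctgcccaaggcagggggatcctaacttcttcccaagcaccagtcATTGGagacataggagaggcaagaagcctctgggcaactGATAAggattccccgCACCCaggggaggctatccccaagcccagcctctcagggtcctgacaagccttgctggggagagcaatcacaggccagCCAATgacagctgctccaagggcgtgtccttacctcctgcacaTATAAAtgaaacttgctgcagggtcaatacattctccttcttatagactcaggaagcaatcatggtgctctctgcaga
Hba-a2: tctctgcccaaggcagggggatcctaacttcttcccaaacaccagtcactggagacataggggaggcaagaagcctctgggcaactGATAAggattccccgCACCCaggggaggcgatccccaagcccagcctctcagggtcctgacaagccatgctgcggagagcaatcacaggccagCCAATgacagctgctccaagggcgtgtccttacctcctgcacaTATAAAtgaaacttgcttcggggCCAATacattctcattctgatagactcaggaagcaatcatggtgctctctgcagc
Hbb: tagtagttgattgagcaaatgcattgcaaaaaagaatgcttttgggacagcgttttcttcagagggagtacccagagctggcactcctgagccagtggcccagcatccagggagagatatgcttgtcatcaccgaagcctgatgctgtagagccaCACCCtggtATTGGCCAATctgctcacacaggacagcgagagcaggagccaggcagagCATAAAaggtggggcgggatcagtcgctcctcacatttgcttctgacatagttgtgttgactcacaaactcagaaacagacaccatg
Hbe1: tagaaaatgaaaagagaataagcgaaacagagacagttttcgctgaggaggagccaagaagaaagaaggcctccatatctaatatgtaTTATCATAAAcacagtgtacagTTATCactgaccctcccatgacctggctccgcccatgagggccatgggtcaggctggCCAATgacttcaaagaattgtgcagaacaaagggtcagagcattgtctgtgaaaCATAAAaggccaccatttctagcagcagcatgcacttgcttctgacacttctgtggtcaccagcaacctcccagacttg
The Hba-a1 and Hba-a2 windows were identical at 288 of 300 positions (96%), against 163 of 320 aligned columns (50.9%) for Hbb and Hbe1. An alpha window aligned with that of Hbb, Hbb-b1 or Hbe1 gave 47.5% to 48.8%, little below the value for Hbb and Hbe1. Hbb and Hbb-b1 gave 64.3%. CCAAT, known as the binding letters of CCAAT box factors, occurred in all 4 printed windows and in 37.5% of the 33469 rat promoter windows of this length. CACCC, the letters bound by the erythroid factor KLF1, occurred in the windows of Hba-a1, Hba-a2 and Hbb and not in that of Hbe1, against 54.9% of all windows. TATAAA was present in both alpha windows (14.2% of all) and CATAAA in those of Hbb and Hbe1 (12.7% of all). The window of Hbb-b1, the other adult beta gene, held the TATA box letters of the alpha windows and not the variant. GATAA, read by GATA1, was found once in each alpha window and at 2 places in Hbe1 (26.5% of all). Among these hits the first CATAAA of Hbe1 shares a base with the GATAA match on the opposite strand. A match describes letters only. RefSeq promoter windows were matched for 5 of the 7 symbols, Hbb-b1 included.

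**Figure D2:**
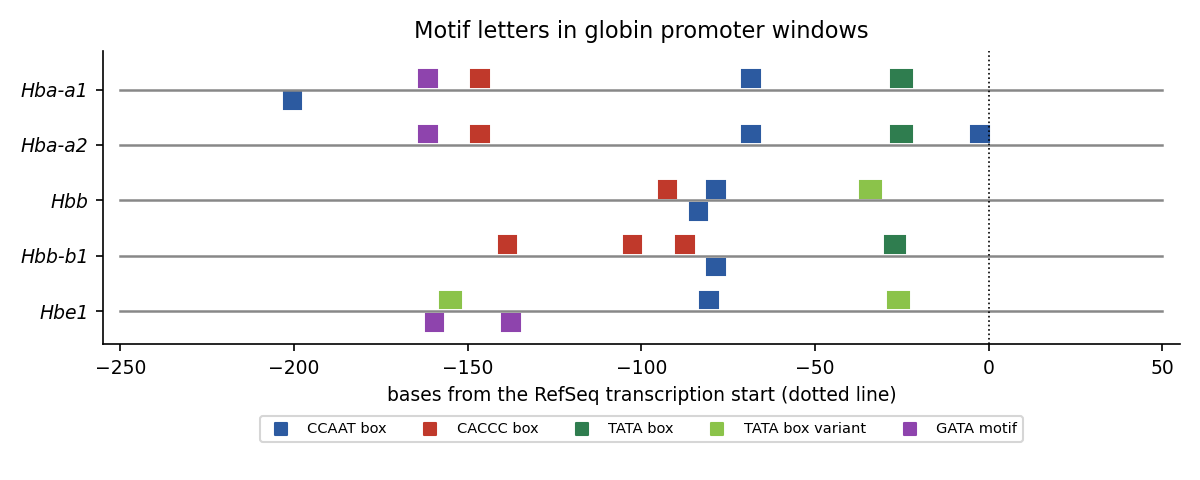
Positions of the 5 motifs in the promoter windows of Hba-a1, Hba-a2, Hbb, Hbb-b1 and Hbe1, in bases from the transcription start (dotted line), with boxes above a line for the printed strand and below it for the opposite strand. The TATAAA match begins 28 bases before the start in both alpha windows and the CATAAA match 37 bases before it in Hbb.

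Among the embryonic chains, Hbe2 had higher values on every mulberry array than on any high-fat array, while Hbe1 overlapped between the diets. Neither passed the threshold, an adjusted p under 0.05 over all tested probe sets. Hbe2 read 8.4917714, 8.4917820, 8.4917758 and 8.4917736 on the mulberry arrays, against 8.4917695, 8.4917635, 8.4917684 and 8.4917642 on the high-fat arrays. The diets did not overlap, although all 8 values were equal when rounded to 4 decimals.

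In SD units Hbe2 averaged 0.758 ± 0.749 with mulberry and -0.758 ± 0.49 with the high-fat diet (SD, n = 4 each). The difference was 1.52 ± 0.434 SD units (SE), or 9.3e-06 ± 2.66e-06 on the log2 scale, with an unadjusted p of 0.0106 and an adjusted p of 1.0 by limma. The two-sided exact permutation p was 0.0286, the smallest that 4 against 4 arrays allow. The same order, all mulberry arrays above all high-fat arrays, was seen in 497 of the 31042 tested probe sets (1.6%), and the opposite order in 284 (0.915%). The Hbe2 difference ran from 1.45 to 1.62 SD units when each array was left out in turn, with unadjusted limma p from 0.00767 to 0.0305.

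Hbe1, a further epsilon-type gene of the same cluster, read 8.275934, 8.275936, 8.275951 and 8.275992 on the mulberry arrays, against 8.275932, 8.275932, 8.275971 and 8.276030 on the high-fat arrays. Replicate 4 was the highest array of either diet. The difference was -0.368 ± 0.704 SD units (SE), with an unadjusted p of 0.618 and an adjusted p of 1.0 by limma and an exact permutation p of 0.714. Its sign rested on high-fat replicate 4, and leaving that array out gave 0.344 SD units.

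**Figure D3:**
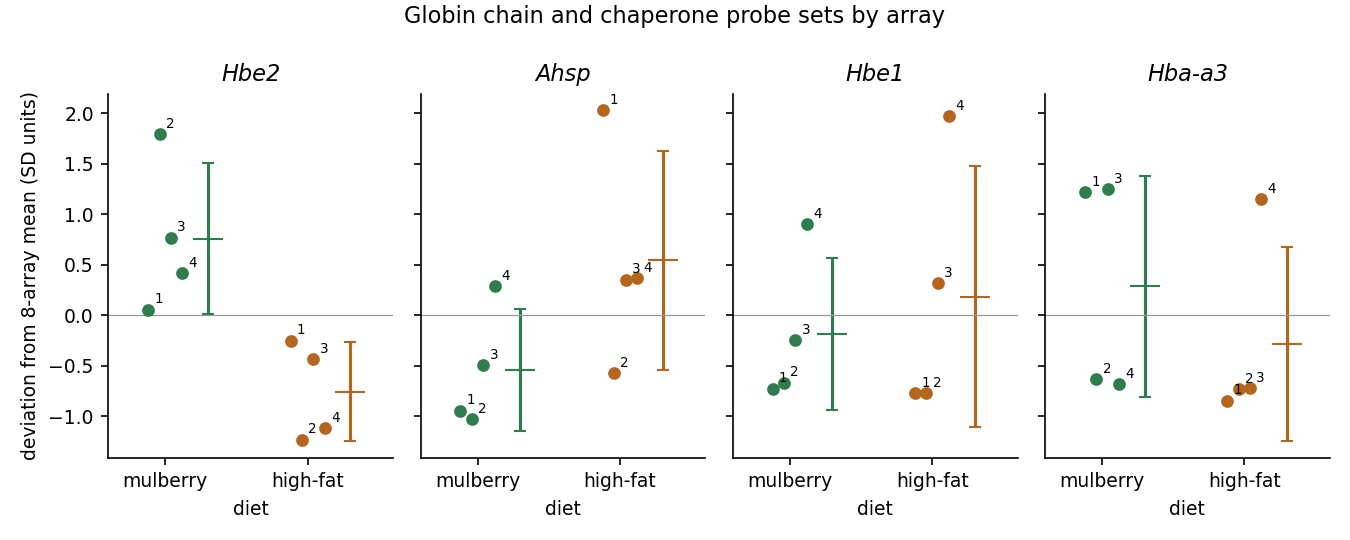
Deviation of each array from the 8-array mean in SD units, for Hbe2, Ahsp, Hbe1 and the alpha-type gene Hba-a3, with mulberry arrays in green on the left and high-fat arrays in brown on the right of each panel. Numbers give the replicate, and the bar to the right of the points is the mean with its SD (n = 4). Hbe2 is the panel in which the diets do not overlap, and Hba-a3 lies at 2 levels that both occur in each diet.

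Ahsp, the alpha chain chaperone, had a lower mean with mulberry, but the arrays overlapped. It read 11.1118, 11.1115, 11.1136 and 11.1165 on the mulberry arrays, against 11.1232, 11.1132, 11.1168 and 11.1168 on the high-fat arrays. High-fat replicate 1 was the highest array and mulberry replicates 1 and 2 were the lowest.

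The difference in Ahsp was -1.09 ± 0.584 SD units (SE), or -0.00417 ± 0.00224 on the log2 scale, and did not pass the threshold (unadjusted p = 0.106 and adjusted p = 1.0 by limma, two-sided exact permutation p = 0.143). Without high-fat replicate 2 it was -1.39 (unadjusted p = 0.038 and adjusted p = 1.0 by limma). The Ahsp probe set varied widely for its level. Its SD of 0.00383 was the highest of the 83 probe sets between 11 and 12, at 162 times their median, and ranked 69 among all tested probe sets. By the same measure the SD of Hbe1 was 2.4 times and that of Hbe2 0.411 times the median of the 1531 probe sets between 8 and 9.

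Ahsp ran opposite to the manufacturer's hybridization controls, 18 probe sets for spiked-in bacterial and phage transcripts. Their mean score was 1.3, 0.695, 0.473 and -0.236 SD units on the mulberry arrays, against -1.44, 0.439, -0.16 and -1.07 on the high-fat arrays. Over the 8 arrays Pearson's r with Ahsp was -0.915 (permutation p = 0.000595, adjusted p = 0.00357 over 6 relations) and Spearman's rho was -0.929 (permutation p = 0.00223, adjusted p = 0.0134). Without the 2 arrays farthest from the median control score, r was -0.913. With 4 arrays in each diet, r was not computed within a diet. The permutation ignored diet, while the score differed by 1.12 and Ahsp by -1.09 SD units between the diets. The controls were taken up after their values were seen. How many of all tested probe sets have so strong an r was not counted, so the relation is not shown to be particular to Ahsp. What part the controls' difference between arrays has in the Ahsp values was not tested further.

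With the control score in the limma model the Ahsp difference was 0.0412 SD units (unadjusted p = 0.924), and with the score of the 24 polyA controls it was -0.652. The hybridization controls had r = 0.415 with Hbe2 and r = -0.485 with Hbe1 (permutation p = 0.304 and 0.23, adjusted p = 0.527 for both, n = 8). Spearman's rho was 0.452 and -0.190 (permutation p = 0.267 and 0.665, adjusted p = 0.535 and 0.797). Without the 2 farthest arrays r was 0.182 for Hbe2 and -0.841 for Hbe1, so that both values depended on those arrays. With the control score in the model Hbe2 differed by 1.75 SD units (unadjusted p = 0.0279 by limma, adjusted p = 1.0) and Hbe1 by 0.383.

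**Figure D4:**
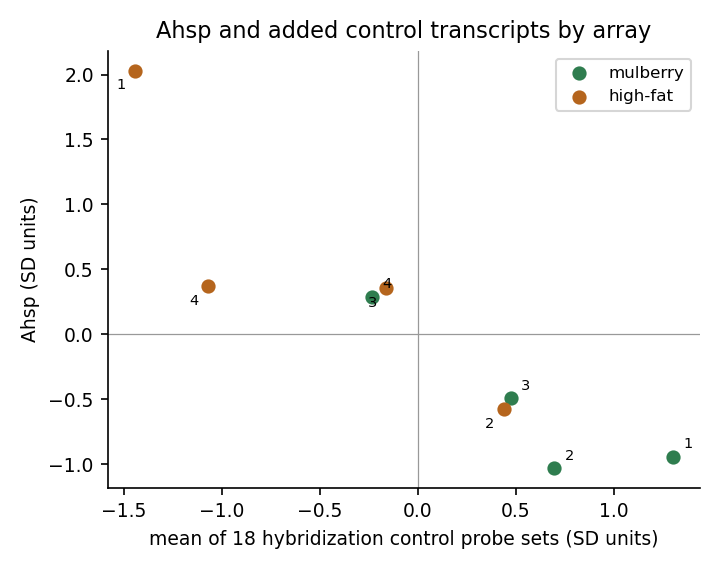
Ahsp on the y axis against the mean of the 18 hybridization control probe sets on the x axis, both in SD units, 1 point per array with its replicate number, mulberry in green and high-fat in brown. High-fat replicate 1 has the lowest control score (-1.44) and the highest Ahsp value (2.03), and mulberry replicates 1 and 2 lie at the opposite end.

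No relation between the 3 members with resolved spread passed its test. Pearson's r was -0.361 between Hbe2 and Ahsp, -0.319 between Hbe2 and Hbe1 and 0.209 between Hbe1 and Ahsp (permutation p = 0.372, 0.442 and 0.527, adjusted p = 0.527 for each, n = 8). Spearman's rho was -0.452, 0.048 and 0.214 (permutation p = 0.267, 0.935 and 0.619, adjusted p = 0.535, 0.935 and 0.797). Without the 2 arrays farthest from the median of the first-named gene, r was -0.365, -0.527 and 0.066.

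Counted together, limma called 0 of the 7 member probe sets at an adjusted p under 0.05, beside 0 of 31042 (0%) in the whole table. At an unadjusted p under 0.05 it called 1 of the 7, Hbe2, beside 1352 of 31042 (4.36%), and in the direction of higher values with mulberry 852 (2.74%). The diets did not overlap in 1 member probe set, again Hbe2, beside 781 (2.52%) in the table. The 4 adult chain probe sets had no resolved spread, so these member counts rest in effect on the other 3. The median difference of the 3 members with resolved spread was -0.368 SD units, beside 0.056 over all resolved probe sets. The 4 adult chain probe sets were given no SD units and do not enter this median.

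Hba-a3, a further alpha-type gene whose older RefSeq symbols include Hba-a1, differed from the alpha pair by having a wide spread. It read 13.69806, 13.69194, 13.69818 and 13.69178 on the mulberry arrays, against 13.69124, 13.69162, 13.69164 and 13.69783 on the high-fat arrays. Mulberry replicates 1 and 3 and high-fat replicate 4 lay near 13.698, and the other 5 arrays near 13.692, so both levels occurred in each diet. Its SD of 0.00331 was 675 times the median of the 48 probe sets between 13 and 14 and the highest among them. The diet difference was 0.577 ± 0.683 SD units (SE, adjusted p = 1.0 by limma).

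The other globin probe sets gave no call. Of 13 listed symbols for other globins 6 were measured singly, with higher means in 5 and a lower mean in 1 with mulberry (median 0.682 SD units, against -0.019 over 14216 named genes). Hbg1, an embryonic beta-type gene, differed by 1.05 ± 0.599 SD units (SE) and Hbz, the zeta chain of embryonic hemoglobin, by 0.788 ± 0.673. Ngb, the globin of neurons, differed by 1.0 ± 0.613, and each had an adjusted p of 1.0 by limma. The probe set shared by the theta-type genes Hbq1b and Hbq1 differed by -0.436 ± 0.698.

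Heme must be supplied in step with globin, and its synthesis genes were split between directions. Of 15 listed genes for heme synthesis and iron import 13 were measured, 8 with lower and 5 with higher means with mulberry. In this list limma called 0 at the adjusted threshold, beside 0 of 14216 named genes. At an unadjusted p under 0.05 it called 1 of the 13, beside 590 of the 14216. Abcb10, a mitochondrial transporter needed for heme production, differed by 1.28 ± 0.524 SD units (SE, unadjusted p = 0.0457 and adjusted p = 1.0 by limma), averaging 0.64 ± 0.823 with mulberry and -0.64 ± 0.751 with the high-fat diet (SD, n = 4 each). Tmem14c, which helps move the porphyrin precursor in mitochondria, differed by -1.1 ± 0.581, and Urod, uroporphyrinogen decarboxylase, by -0.872 ± 0.635. Alas2 differed by -0.0447 ± 0.828.

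The listed regulators of globin genes were split in the same way. All 13 listed genes were measured, 7 with lower and 6 with higher means with mulberry, with 0 called by limma at either threshold. Tal1, a core erythroid transcription factor, lay higher on all 4 mulberry arrays, at 0.51, -0.0648, -0.184 and 2.23 SD units against -0.847, -0.277, -0.728 and -0.637 on the high-fat arrays. The difference was 1.25 ± 0.536 SD units (SE, unadjusted p = 0.0542 and adjusted p = 1.0 by limma). Its diets did not overlap, as in 2.52% of all tested probe sets. Gata1, the erythroid GATA factor, differed by 1.04 ± 0.596 and Klf1, the activator of the adult beta globin gene, by -1.07 ± 0.589.

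Genes that set the use and clearance of hemoglobin were measured for all 11 listed symbols, 7 with lower and 4 with higher means with mulberry, again with 0 called at either threshold. Car2, a carbonic anhydrase of red cells, differed by -1.22 ± 0.544 SD units (SE, unadjusted p = 0.0607 and adjusted p = 1.0 by limma). Cyb5r3 and Cyb5a, which return methemoglobin to its oxygen-binding form, differed by -0.709 ± 0.664 and -0.693 ± 0.667. Bpgm, which makes the effector that lowers oxygen affinity, differed by 0.7 ± 0.709, Blvrb by 0.422 ± 0.7, Slc4a1 by 0.325 ± 0.707 and Hp, the plasma scavenger of free hemoglobin, by -0.376 ± 0.703.

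Of 6 genes tied to the clearing of reticulocyte proteins and organelles 5 were measured, 3 with lower and 2 with higher means and 0 called by limma at either threshold. Ube2h differed by -0.839 ± 0.646 SD units (SE), the nuclear export receptor Xpo7 by -0.811 ± 0.647 and Ube2l6 by -0.748 ± 0.658. Over the 14216 named genes 7238 (50.9%) had a lower mean with mulberry, and limma reached an unadjusted p under 0.05 in 590 of them.

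**Figure D5:**
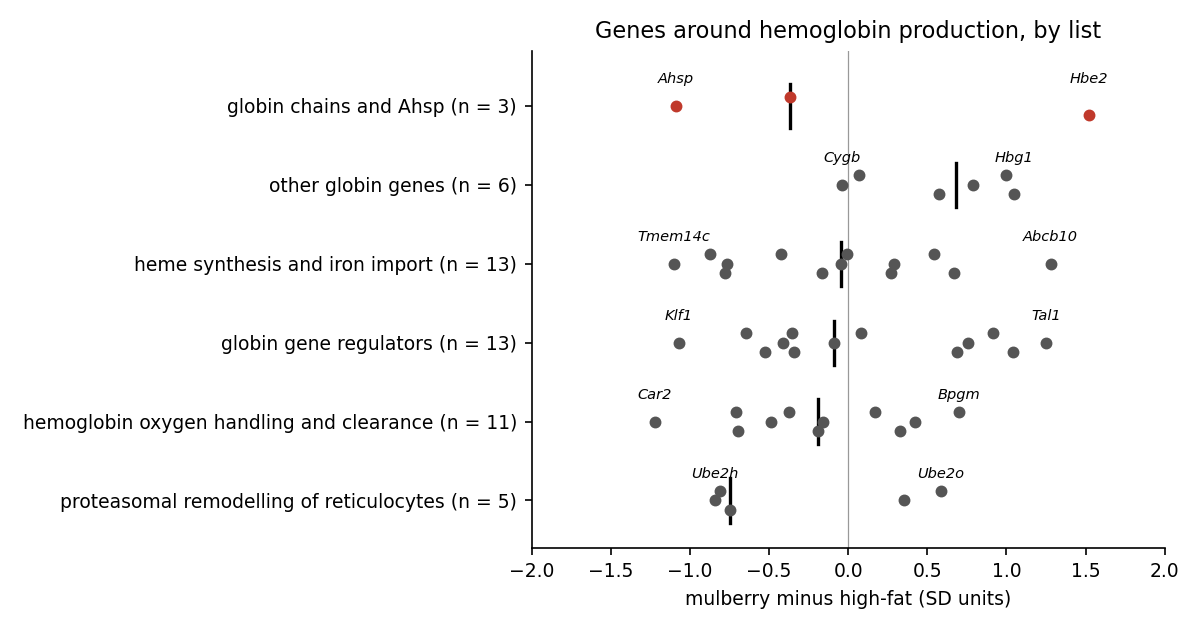
Difference between the diets, mulberry minus high-fat in SD units, for each gene of the 6 lists, with 1 point per gene, a black bar at the list median and the lowest and highest gene of each list named. Points of every list lie on both sides of 0, and the widest span among the globin chains and Ahsp runs from -1.09 for Ahsp to 1.52 for Hbe2.

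The erythroid score, the mean over its markers on an array, ranged from -0.498 to 0.38 SD units on the mulberry arrays, against -0.6 to 0.966 on the high-fat arrays, with 8 of 11 markers lower with mulberry. Platelet markers were higher with mulberry in 8 of 8 (scores -0.366 to 1.6, against -1.49 to 0.193) and neutrophil markers in 6 of 7 (-0.522 to 0.928, against -1.53 to 0.56). NK cell markers were lower in 7 of 7 (-0.702 to -0.0808, against -0.459 to 2.03) and B cell markers in 6 of 6 (-0.923 to 0.366, against -0.731 to 1.28). Monocyte markers were lower in 6 of 8 and T cell markers in 5 of 10. The scores of all these lists overlapped between the diets, and their part in the Hbe2 and Ahsp values was not tested.

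The genes whose pattern over the 8 arrays was most like that of a member, among 20821 candidate probe sets with 1 gene name, were found by Pearson's r and are given as a description. For Ahsp they were Myo5c (0.974), Atp1b2 (0.974), Supt4h1 (0.962), Car2 (0.960, a different probe set from that above) and Chac2 (0.950). For Hbe2 they were Tmem213 (0.982), Hacd1 (0.978), Amph (0.971), Cbx8 (0.966) and Usp29 (0.954). For Hbe1 they were C3ar1 (0.976), Lmo4 (0.957), Gpr137b (0.956), Ccl4 (0.955) and Tspo (0.953). The list for Hbe1 was added after its values were seen. The genes listed for Hbe2 lay at levels from 6.28 to 7.16, beside a median of 6.57 over all tested probe sets. Spearman's rho was lowest for Usp29 (0.762) and C3ar1 (0.810). All of these r are over the same 8 arrays and share their normalization. The adult chain probe sets have no such list, since the alpha values did not vary and those of Hbb ranged over less than 1e-07.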

How the data were processed

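Total RNA of whole blood was isolated with TRIzol LS, cleaned on an RNeasy column and labelled with biotin from 200 ng with the GeneChip 3' IVT Express kit, per the labels' protocols. The values were deposited by the authors and read as log2 probe set summaries, from 5.1727 to 15.2561, while how probe sets were summarized and normalized is not given in the sources used here. Their compression between arrays is of unknown size and may differ between probe sets, so differences are in SD units. Precision was judged from the spread of the 4 arrays per diet, and signal over background was not used. Of 31099 probe sets 57 manufacturer controls were left out. Names came from the platform annotation. Among the tested probe sets 20826 named 1 gene (20758 of them matched to RefSeq, GRCr8, by gene number), 436 several and 9780 none.

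The diets were compared over all 31042 probe sets by a two-sided moderated test (limma 3.58.1, R 4.3.3) with diet as the sole term, and p-values were adjusted by Benjamini-Hochberg, with 0.05 as the threshold. Exact permutation tests of a diet difference used all 70 assignments of the arrays to the diets (Python 3.11.15, scipy 1.17.1). Permutation tests of a correlation used all orderings of the 8 arrays. Their p-values were adjusted by Benjamini-Hochberg over the 6 relations, separately for Pearson's r and Spearman's rho. Lists used 1 probe set per gene, the one of highest mean, and received no set test. The members and lists were chosen with earlier results of these data known. The text names every member, the 3 genes of smallest unadjusted p in each list, 7 further genes (Alas2, Klf1, Gata1, Slc4a1, Blvrb, Bpgm and Hp), and the 5 genes most like Ahsp and Hbe2. Other globin probe sets and the controls were described after their values were seen. The fit was tested on simulated data with probe sets moved by known multiples of the within-diet SD. It recovered 26% of those moved by 4 SDs, 92% at 8 and 100% at 16, and called 11 unmoved ones. Differences of 4 such SDs were thus mostly missed. Older gene symbols were matched through RefSeq. Replicate numbers are not stated to pair arrays across diets, and the main fit used no pairing. Alternatives were quantile normalization, median centring, brighter probe sets only, a replicate block, other eBayes settings, control scores as covariates and leaving out each array.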

Additional observations from a re-analysis of the deposited data

Results flagged for a closer look

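Within a diet, a single array stood apart from the other 3 for 4 of the genes described, by the share of the group's range that lies between it and its nearest neighbour. This was seen in 5 of the 50 groups of 4 examined, and chance marks about 1 group in 20. Hba-a3 in high-fat replicate 4 had a share of 0.938, at 13.6978287 or 1.15 SD units, against -0.846 to -0.723 on the other high-fat arrays. Klf1 had a share of 0.884 in mulberry replicate 4 (0.837 SD units, others -1.09 to -0.865) and 0.973 in high-fat replicate 2 (-0.739, others 0.942 to 0.989). Alas2 in high-fat replicate 4 had a share of 0.873, at -1.56 SD units against 0.436 to 0.726. Xpo7 in high-fat replicate 1 had a share of 0.995, at 2.46 SD units against -0.285 to -0.272.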

How the results depend on the processing

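Member calls were 0 under every alternative run, and limma called 0 probe sets in the whole table under each of them except quantile normalization, which gave 12, none a member. Of those, 11 had the same normalized value on every array within each diet. The median difference of the resolved members, -0.368 SD units as deposited, was 0.672 after median centring and 0.707 after quantile normalization, and ran from -0.726 to 0.344 without 1 array. Hbe1, which is that median, turned to 0.672 and 0.707 under the same 2 settings, to 0.383 with the hybridization control score as a covariate and to 0.344 without high-fat replicate 4. Ahsp turned to 0.0412 with that covariate, and otherwise stayed lower with mulberry (-0.944 to -1.39 without 1 array). Hbe2 kept its direction under every alternative, up to 1.88 with the polyA controls, but most alternatives could not turn it. Its diets did not overlap, so leaving out 1 array could not change the sign. The brighter probe sets, the replicate block and the other eBayes settings leave a difference of means unchanged, at 1.52. After quantile normalization it was 0.707 (unadjusted p = 0.339 by limma). Hbe1 and Ahsp had the same size and p there, at 0.707 and -0.707, so that setting did not set Hbe2 apart. Median centring added 3.45e-05 log2 units to the mulberry minus high-fat difference of every probe set, more than the Hbe2 difference of 9.3e-06 but little beside that of Ahsp. The shift and the Hbe2 difference have the same sign, so centring could not turn the direction of Hbe2. Between same-numbered arrays of the diets the correlations of deviations were -0.0463, -0.0506, 0.246 and 0.163. Of the mulberry arrays 2 of 4 correlated best with their own number. These values were given no test and do not settle whether the numbers pair arrays. With the replicate block the fit called 0 probe sets and the median stayed at -0.368, with unadjusted limma p of 0.0468 for Hbe2 and 0.214 for Hbe1. The cause of these changes was not tested. After median centring the 4 adult chain probe sets differed by that same 3.45e-05 (unadjusted p = 0.0875 and adjusted p = 0.162 by limma), which is the common shift itself.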
